A study of Homo sapiens with 4 samples.

Results

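TBXA2R, the receptor for thromboxane A2, and 9 other genes of eicosanoid synthesis and reception were described in naive and arsenic trioxide (ATO) resistant cells of the acute promyelocytic leukemia line NB4. The 10 genes were 4 prostanoid receptors (TBXA2R, PTGIR, PTGER2 and PTGER4), 3 enzymes of prostanoid synthesis (PTGS1, PTGS2 and TBXAS1) and 3 genes of leukotriene synthesis (ALOX5, ALOX5AP and LTA4H). They were chosen by name with the difference between the lines already known, and every probe with one of these names was taken. This gave 17 of the 41000 probes on the array and 10 of its 18478 named genes. Because the genes were selected on this contrast, their values are given as a description, with no p-value, and the probes called among them are counted once, below, for completeness.

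Eicosanoids are lipid signals made from arachidonic acid, which phospholipase A2 enzymes release from the cell membrane. Cyclooxygenases turn it into the precursor of prostaglandins, prostacyclin and thromboxane, while 5-lipoxygenase, helped by its activating protein, turns it into leukotrienes. The products leave the cell and act on G protein-coupled receptors. Thromboxane A2 is best known from platelets, which aggregate in response to it, and leukotrienes are typical products of neutrophils, monocytes and mast cells.

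Each line was measured in 2 flasks, on one-colour Agilent arrays of 60-base probes. The naive flasks held NB4 cells and the resistant flasks a subline that the labels call NB4-VM-AsR1 and the study's methods NB4-EV-AsR1. All flasks grew in RPMI with 10% FBS. According to the methods the flasks were independent, the resistant cells were a single clone, and they were kept free of ATO for a week before RNA was taken, so the comparison is one of the lines and not of acute exposure. All 4 arrays lay on 1 slide, with the naive flasks in the first positions and the resistant flasks in the last, and position and line cannot be told apart. Between 27922 and 28244 probes per array were well above background and 457 to 565 were saturated. The naive flasks differed from each other with an SD of 0.71 (log2) over all probes and the resistant flasks with an SD of 0.37, against 1.01 to 1.07 between lines. The promyelocytic identity of both lines was checked with 8 marker genes, of which 6, MPO and MYB among them, were well above background on all 4 arrays, while KIT was so on only 1. The summed linear level of the 8 was 195 and 191 in the naive and 216 and 260 in the resistant flasks. MPO was saturated on all 4 arrays and MYB and CTSG on 2 each, so the ceiling of the scanner limits this sum. The granule protein genes ELANE and AZU1 rose by 2.49 and 1.17 on the log2 scale in the resistant line (limma adjusted p = 0.017 and 0.047), and PRTN3 differed by 2.39 (limma adjusted p = 0.179). ELANE was well above background in only 1 naive flask, with naive levels of -5.74 and -6.56. It was thus tested through the resistant line alone, and the size of its rise is uncertain.

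Levels are log2 processed signal minus the 75th percentile of the same array, so 0 is the level of a fairly bright probe, and they are compared between flasks for the same probe and never between probes. A difference is the mean of the resistant minus the mean of the naive flasks on that scale, and its standard error (SE) comes from limma, fitted on every probe that passed the scanner's background call in both flasks of either line. A probe counts as called if its adjusted p was below 0.05 and its difference at least 2-fold. Of the 28221 probes tested, 5.27% were called, 2.3% higher and 2.97% lower in the resistant line. Among the 17 probes of the 10 genes 13 could be tested, covering 8 genes, and 6 were called, 4 higher (TBXA2R at base 2285, PTGER4 at base 3141 and both ALOX5AP probes) and 2 lower (PTGER2 and TBXAS1 at base 301). As the genes were chosen on this contrast, nothing is read from that count. With 1 resistant flask left out 4 probes were called, and the TBXA2R probe and both ALOX5AP probes were among them each time. After a normexp background correction, which adds an offset of 50 to each intensity, none of the 13 was called, nor was any other probe of the array, and with the methods' t-test after adjustment none was called either. The 13 tested probes had a median absolute difference of 1.34, against 0.34 for all probes tested. Their median signed difference was 0.12, against -0.02. A large absolute difference was built into the choice of the genes, so nothing is read from these medians either.

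**Figure D1:**
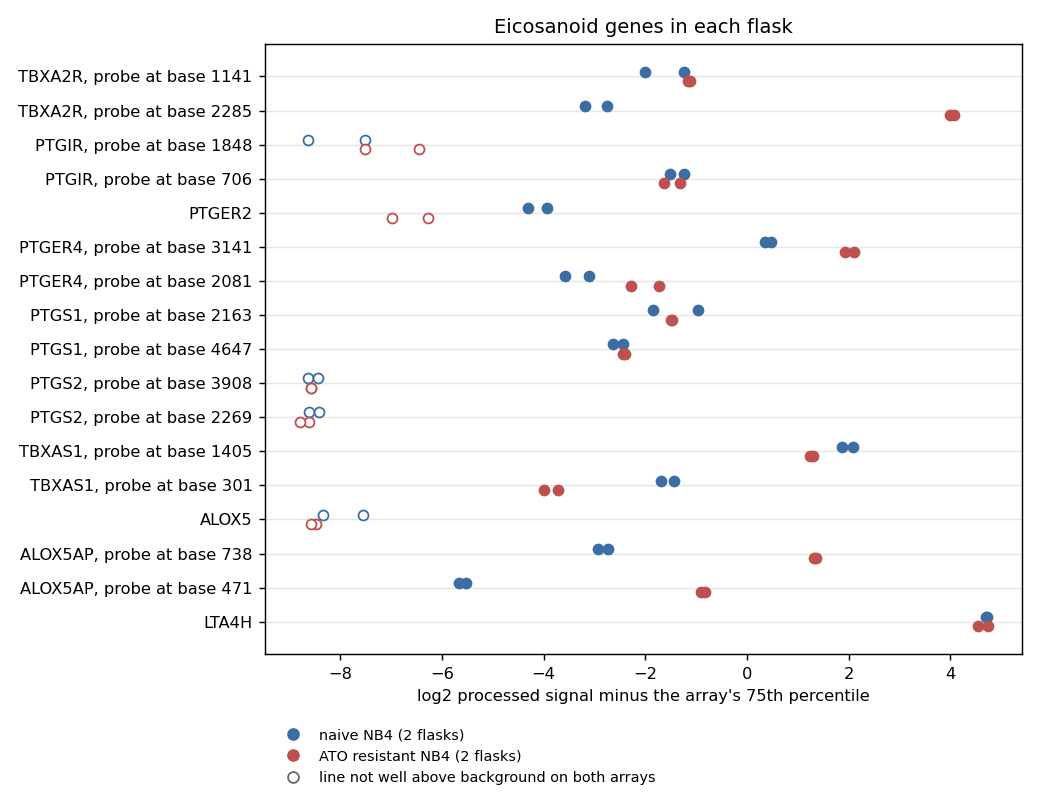
Level of each of the 17 probes of the 10 eicosanoid genes in each flask (x axis, log2 processed signal minus the 75th percentile of the array, 1 point per flask, no error bars). Where a gene has more than 1 probe, the position of the probe in its transcript is given. Open points mark a line in which the probe was not well above background on both arrays. One TBXA2R probe and both ALOX5AP probes lie far to the right in the resistant flasks, while LTA4H overlaps between lines.

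The largest difference among the 10 genes was at 1 of the 2 TBXA2R probes. This probe, which the files place at base 2285 of the transcript and at chr19:3594760-3594819 on the minus strand (hg19), is listed for both RefSeq transcript variants of the gene. The other probe, at base 1141, is listed for 1 of these variants and has no genome position in the files. The sequences are shown because the probes disagreed. The base 1141 probe is printed whole and the base 2285 probe by its first 30 bases.
TBXA2R base 1141: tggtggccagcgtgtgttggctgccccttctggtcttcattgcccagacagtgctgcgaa
TBXA2R base 2285: acccccttttcttgccaaaatatatctctg
The whole 60 bases have a G and C content of 60% for the base 1141 probe and 40% for the base 2285 probe.

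At the base 2285 probe of TBXA2R the level was -2.75 and -3.18 in the naive flasks and 3.99 and 4.08 in the resistant flasks. The naive and resistant flasks were far apart, and the signal was well above background on all 4 arrays. In processed intensity the naive flasks read 161 and 99.5 and the resistant flasks 16641 and 14208. The difference was 6.99 (SE 0.25, n = 2 flasks per line), which is 127-fold, and 3 of the 28221 probes tested had a larger positive difference. After normexp it was 5.89. At the base 1141 probe the level was -2.01 and -1.24 in the naive flasks and -1.15 and -1.12 in the resistant flasks. The resistant flasks again lay above both naive flasks, but the gap was smaller than the gap between the naive flasks, and the difference was 0.49 (SE 0.32). Processed intensities there were 268 and 379 in naive and 472 and 387 in resistant cells.

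The 2 probes of TBXA2R therefore gave changes that differed by 6.50 on the log2 scale, with an SD of 0.60 between flasks of a line. Across the 5215 genes with at least 2 tested probes, the median gap between the probe with the highest and the probe with the lowest change was 0.28, and 7.44% of the genes had a gap of more than 2-fold. TBXA2R ranked 3rd by this gap. It was chosen for the size of its change and for the disagreement of its probes. This rank, and that of its change among all tested probes, are therefore a description only. Whether the base 2285 probe reads TBXA2R itself, a transcript variant with a different 3′ end or another RNA was not tested. Every statement on TBXA2R below rests on that probe alone.

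The probes whose pattern over the 4 arrays was most like the base 2285 probe of TBXA2R, after each was centred on its own mean, belonged to PRAME, SV2B and MFNG. The search covered 19179 named, unsaturated probes that passed the background call in every flask, and the 3 root mean square distances from the TBXA2R probe were 0.60, 0.78 and 0.82 (log2). The differences between the lines were 6.11 for PRAME, 5.52 for SV2B and 5.44 for MFNG. As the probes were centred but not scaled, a large rise was built into this search.

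The genes around TBXA2R on chromosome 19 were compared next, as position had no part in choosing the genes. Within 250 kb of the base 2285 probe lay 15 genes or transcripts, and 13 of them were tested. None was called, against 5.27% of all probes, and 1 had an unadjusted p below 0.05 in limma. The nearest on one side was GIPC3, whose probe lay 1.95 kb away, with a difference of -0.27 (SE 0.27, limma adjusted p = 0.645). The nearest on the other side was C19orf29, at 15.9 kb, with a difference of 0.12 (SE 0.22, limma adjusted p = 0.817). HMG20B, a subunit of a histone deacetylase complex, differed by 0.58 (SE 0.25, limma adjusted p = 0.299). All 13 lay between -0.42 and 1.08, and the highest was the transcript AK129956 (SE 0.29, limma adjusted p = 0.123). Without naive flask 1 C19orf77 was called (1.99), and without naive flask 2 AK129956 was called (1.26). With the methods' t-test after adjustment the count was also 0.

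**Figure D2:**
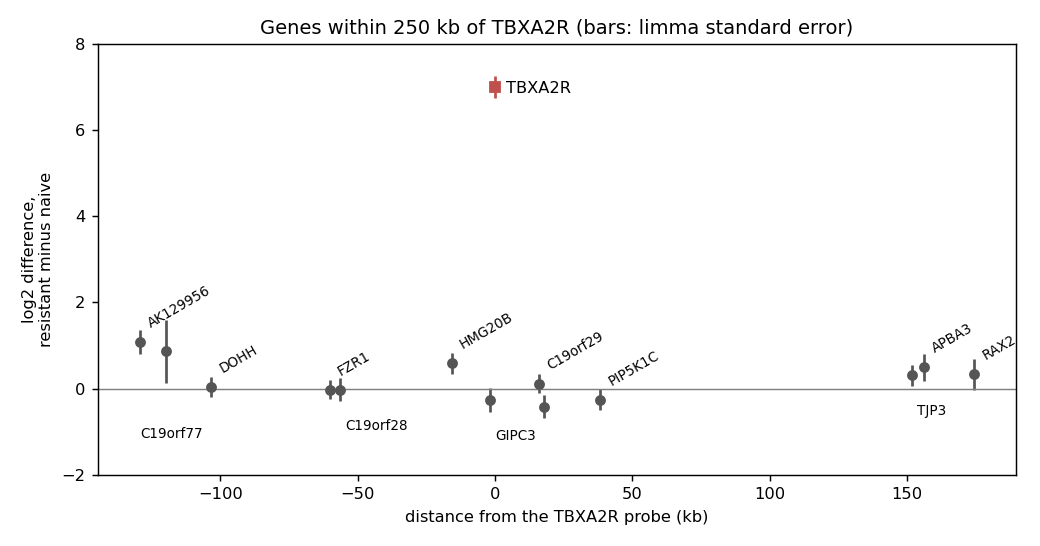
Difference between the lines (y axis, log2, resistant minus naive, bars are limma standard errors, n = 2 flasks per line) against distance from the base 2285 probe of TBXA2R (x axis, kb) for the 13 tested genes and transcripts within 250 kb, of which 1 has no name. TBXA2R stands at 6.99 and its neighbours between -0.42 and 1.08.

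The receptors for prostaglandin E2 that raise cyclic AMP, PTGER2 and PTGER4, differed in opposite directions. PTGER4 has 2 probes on chromosome 5, at chr5:40693563-40693622 and chr5:40692503-40692562, both on the plus strand of hg19. At the first, base 3141 of the transcript, the level was 0.36 and 0.47 in naive and 1.93 and 2.10 in resistant flasks. At the second, base 2081, it was -3.11 and -3.58 in naive and -1.74 and -2.27 in resistant flasks. The lines did not overlap at either probe. The differences were 1.60 (SE 0.22), which is 3.03-fold, and 1.34 (SE 0.31), which is 2.53-fold.

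PTGER2 has 1 probe, at chr14:52794430-52794489 on the plus strand. Its level was -3.92 and -4.31 in the naive flasks and -6.28 and -6.99 in the resistant flasks. It was well above background in both naive flasks and in neither resistant flask. The size of the measured difference of -2.51 (SE 0.33) is therefore uncertain. Set against the lowest signal that counted as well above background, PTGER2 was 5.04-fold lower in the resistant line. In resistant flask 1 its own level was used, which lay above that lowest signal of -6.32 without passing the call. The fold is therefore no strict lower limit. The probe was dim, with processed intensities of 71.2 and 45.3 in naive cells and 13.5 and 6.6 in resistant cells. After normexp the difference was -0.14, and it was -0.58 with local backgrounds over 100 first set to the median of the array.

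PTGIR, the prostacyclin receptor, has 2 probes on the minus strand of chromosome 19. At chr19:47126830-47126889, base 706 of the transcript, the level was -1.51 and -1.23 in naive and -1.62 and -1.32 in resistant flasks. The lines overlapped, with a difference of -0.10 (SE 0.25). The other, at chr19:47123903-47123962, was well above background in 1 resistant flask only and was not tested. Its levels were -8.63 and -7.52 in naive and -7.50 and -6.45 in resistant flasks.

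Of the cyclooxygenases, PTGS1, the enzyme that most tissues make all the time, was measured in both lines, and PTGS2, the enzyme that inflammatory signals induce, was above background in neither. PTGS1 has 2 probes on the plus strand of chromosome 9. At chr9:125155052-125155111 the level was -0.96 and -1.86 in naive flasks and -1.49 and -1.48 in resistant flasks, so that the naive flasks lay on either side of the resistant ones. At chr9:125157536-125157595 it was -2.44 and -2.63 in naive and -2.39 and -2.44 in resistant flasks, which lay just above the naive ones. The differences were -0.08 (SE 0.35) and 0.12 (SE 0.22). The 2 probes of PTGS2, on the minus strand of chromosome 1 at chr1:186641469-186641528 and chr1:186643108-186643167, were not well above background on any array, the first of them averaged over 10 spots. Their levels lay between -8.42 and -8.80 in the 4 flasks, and no order can be read from them.

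TBXAS1, thromboxane A synthase, makes the ligand of TBXA2R, and both of its probes read lower in the resistant line. The sequences are shown because the probes differed in size of change. The base 1405 probe, at chr7:139706924-139706982 on the plus strand, is listed for 4 RefSeq transcripts and is printed whole. The base 301 probe, at chr7:139487150-139487209, is listed for 2 of these and is printed by its first 30 bases.
TBXAS1 base 1405: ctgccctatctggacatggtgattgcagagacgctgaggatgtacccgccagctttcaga
TBXAS1 base 301: cctggactgcctggctgatgtgagctagtt

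At base 1405 of TBXAS1 the level was 1.87 and 2.09 in the naive flasks and 1.29 and 1.23 in the resistant flasks. At base 301 it was -1.69 and -1.44 in the naive flasks and -3.99 and -3.71 in the resistant flasks. The lines did not overlap at either probe. The differences were -0.72 (SE 0.23), which is 1.64-fold lower, and -2.28 (SE 0.24), which is 4.86-fold lower. After normexp the difference at base 301 was -1.05. The synthase thus read lower in the line in which 1 probe of its receptor read higher.

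ALOX5AP, the membrane protein that hands arachidonic acid to 5-lipoxygenase, was much higher in the resistant line at both of its probes. Both probes lie on the plus strand of chromosome 13, at chr13:31338155-31338214 (base 471 of the transcript) and chr13:31338422-31338481 (base 738). They are shown because both carried the difference, the first whole and the second by its first 30 bases.
ALOX5AP base 471: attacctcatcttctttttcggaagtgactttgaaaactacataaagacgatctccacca
ALOX5AP base 738: gccccttgaacatgaccgtggccccaaatt

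At base 471 of ALOX5AP the level was -5.66 and -5.52 in the naive flasks and -0.83 and -0.91 in the resistant flasks. At base 738 it was -2.94 and -2.72 in naive and 1.36 and 1.32 in resistant flasks. Both probes passed the background call in every flask and separated the lines widely. The differences were 4.72 (SE 0.22) and 4.17 (SE 0.23), which are 26.3-fold and 18.0-fold, and 32 and 69 of all tested probes had a larger positive difference. In processed intensity the base 738 probe read 141 and 136 in naive and 2689 and 2108 in resistant cells. The base 471 probe was dim in naive cells, at intensities of 21.3 and 19.6, and its difference was 2.25 after normexp, while that of the base 738 probe was 3.26.

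ALOX5, the 5-lipoxygenase that ALOX5AP serves, was not well above background on any array. Its single probe, at chr10:45941417-45941476 on the plus strand, had levels of -7.54 and -8.34 in naive and -8.47 and -8.58 in resistant flasks, and it was not tested. LTA4H, the hydrolase that makes leukotriene B4, was bright in both lines. Its probe, at chr12:96394767-96394826 on the minus strand, had levels of 4.73 and 4.70 in naive and 4.55 and 4.74 in resistant flasks. The lines overlapped, with a difference of -0.07 (SE 0.22). For ALOX5 a probe near background does not show that the transcript was absent.

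The rest of the pathway was read from 46 other genes of eicosanoid synthesis, breakdown and reception, of which 45 were on the array and 34 were tested by their brightest probe. In limma 6 of the 34 were called, 3 higher (PLA2G4A, LTC4S and MGST2) and 3 lower (CBR1, AKR1C3 and PTGR1). Over all 14022 genes tested in the same way 6.25% were called, 2.92% higher and 3.34% lower. The median difference of the list was -0.09, and 13 of its genes had an unadjusted p below 0.05. CBR1, AKR1C3 and PTGR1 entered the fit through the naive line alone and PLA2G4A through the resistant line alone, so a difference was built into their selection. Of the 28 genes that were well above background in every flask 2 were called, and 1 when only such probes were fitted.

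PLA2G4A, the cytosolic phospholipase A2 that releases arachidonic acid, rose in the resistant line. Its level was -5.95 and -8.33 in the naive flasks, of which only flask 1 was well above background, and -0.47 and -0.56 in the resistant flasks. The difference was 6.62 (SE 0.76, limma adjusted p = 0.010). As a naive flask lay at background, the size of this difference is uncertain. It was 7.82 without naive flask 1 and 5.43 without naive flask 2, 5.07 in the deposited table and 2.75 after normexp. The adjusted p ran from 2.1e-05 to 0.596 over 14 alternatives, 12 of which kept the call. The other 7 phospholipases A2 that were tested were not called and lay between -0.66 (PLA2G1B) and 0.27 (PLA2G2D).

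Both called genes of the leukotriene C4 branch rose. LTC4S, the leukotriene C4 synthase, had levels of -2.32 and -1.79 in naive and -0.47 and -0.45 in resistant flasks, a difference of 1.59 (SE 0.27, limma adjusted p = 0.037). MGST2, a microsomal glutathione transferase that can also make leukotriene C4, had levels of -0.05 and -1.02 in naive and 1.36 and 1.56 in resistant flasks, a difference of 2.00 (SE 0.37, limma adjusted p = 0.049). The lines did not overlap for either gene, which held for 18 of the 34 tested genes of the list. The call of LTC4S was kept in 10 of 15 alternatives and that of MGST2 in 4 of 15, and both were lost without either resistant flask. DPEP2, a dipeptidase that cleaves leukotriene D4, differed by 2.13 (SE 0.53, limma adjusted p = 0.106), and GGT5, which cleaves leukotriene C4, by -1.07 (SE 0.24, limma adjusted p = 0.081). Neither was called.

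Of the prostanoid synthases 2 of 6 tested were called, both lower, and all 6 had a negative difference. CBR1, a carbonyl reductase that converts prostaglandin E2 to F2 alpha, had levels of -2.04 and -2.29 in the naive flasks and -8.54 and -8.70 in the resistant flasks, where it was not well above background. Set against the lowest signal that counted as well above background, CBR1 was 19.8-fold lower. The measured difference was -6.45 (limma adjusted p = 0.001), but CBR1 was tested through the naive line alone. AKR1C3, an aldo-keto reductase that makes prostaglandins of the F series, had levels of -4.64 and -3.72 in naive and -7.59 and -7.07 in resistant flasks, where it was not well above background either. Set against the same lowest signal, AKR1C3 was 4.91-fold lower. The measured difference was -3.15 (limma adjusted p = 0.013), and AKR1C3 too was tested through the naive line alone. After normexp the differences were -1.26 for CBR1 and -0.24 for AKR1C3, and neither was called. Both enzymes also reduce substrates other than prostaglandins. PTGES3, PTGES2, PTGDS and PTGIS lay between -0.23 and -1.73 and were not called. The lines overlapped for PTGES3 and PTGDS, and PTGIS was not well above background in the resistant line.

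Of the genes of prostanoid breakdown and transport 1 of 4 tested was called. PTGR1, a reductase that inactivates leukotriene B4 and metabolites of prostaglandins, had levels of -1.73 and -2.14 in the naive flasks and -8.60 and -8.83 in the resistant flasks, where it was not well above background. Set against the lowest signal that counted as well above background, PTGR1 was 23.2-fold lower. The measured difference was -6.78 (limma adjusted p = 0.001), but PTGR1 was tested through the naive line alone. After normexp the difference was -1.34 and not called. SLCO2A1, the prostaglandin transporter, differed by -1.25 (SE 0.26, limma adjusted p = 0.070). HPGD, the dehydrogenase that inactivates prostaglandins, was not well above background on any array.

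None of the 3 other prostanoid receptors tested, the 3 other lipoxygenases tested or the 4 leukotriene and oxo-eicosanoid receptors tested was called by limma, and 1 of these 10 genes, PTGER1, had an unadjusted p below 0.05. PTGER1 differed by -0.86 (limma adjusted p = 0.201). CYSLTR1, a receptor for cysteinyl leukotrienes, had levels of -1.69 and -2.02 in naive and -1.49 and -1.03 in resistant flasks, a difference of 0.60 (SE 0.28, limma adjusted p = 0.327). LTB4R, the high-affinity receptor for leukotriene B4, differed by -0.01 (SE 0.27). PTGER3, PTGFR, CYSLTR2 and ALOX15 were not well above background on any array.

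**Figure D3:**
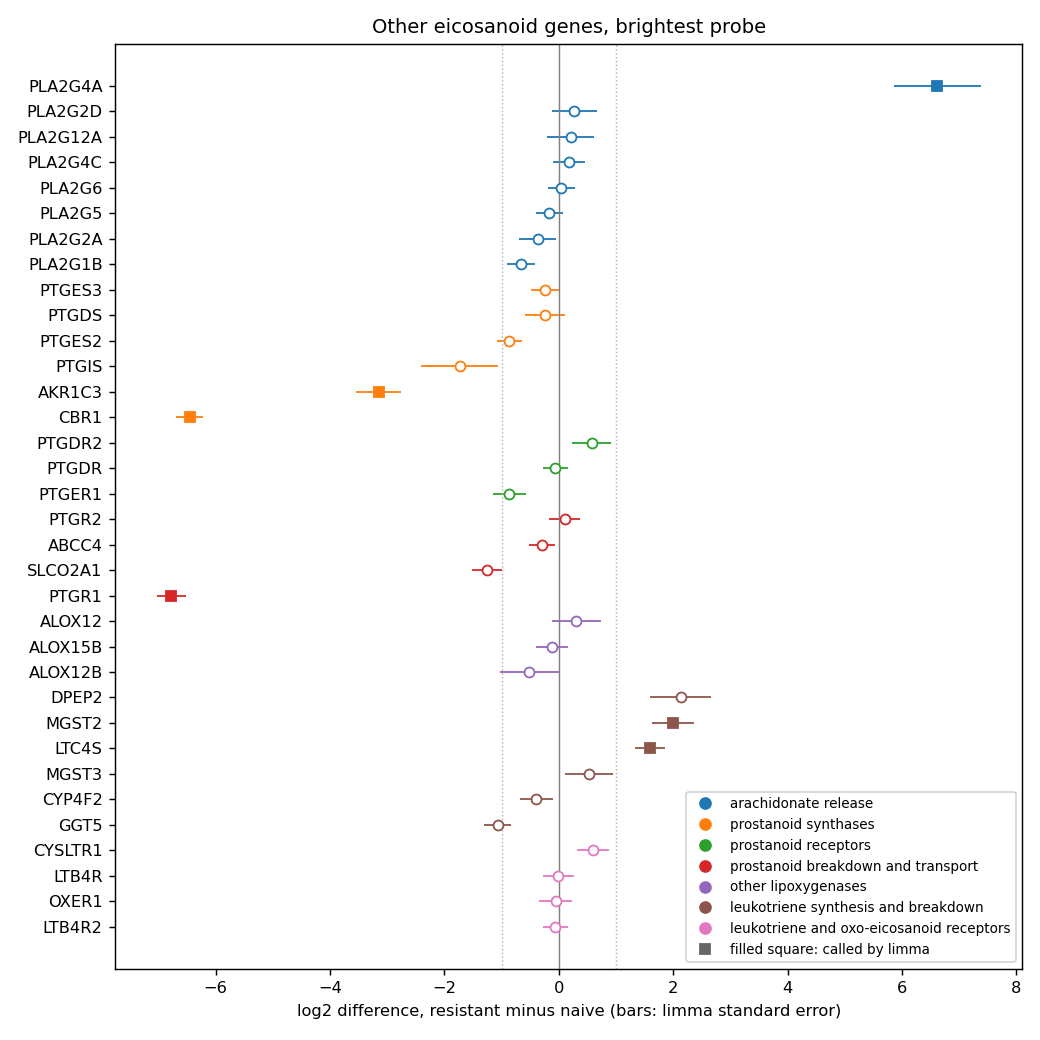
Difference between the lines (x axis, log2, resistant minus naive, bars are limma standard errors, n = 2 flasks per line) for the 34 tested genes of the eicosanoid pathway outside the 10 described, coloured by role. Filled squares are the 6 called genes and dotted lines mark 2-fold. PTGR1 and CBR1 lie furthest to the left and PLA2G4A furthest to the right, but PTGR1, CBR1 and AKR1C3 were not well above background in the resistant line and PLA2G4A not in naive flask 2, so their plotted values are not measured on both sides.

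The G proteins and effectors of these receptors were read from a list of 26 genes, of which 24 were tested. TBXA2R acts through Gq and G12/13, and PTGER2, PTGER4 and PTGIR through Gs and cyclic AMP. In limma 3 of the 24 were called, 1 higher and 2 lower, against the 6.25% of all genes given above, and 5 had an unadjusted p below 0.05. The median difference of the list was 0.12. Without either of the resistant flasks none of the list was called, without naive flask 1 there were 5, and with no filter on dim probes 1.

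In the Gq and G12/13 arm 1 of 14 tested genes was called. GNA12, the alpha subunit of G12, had levels of 1.76 and 1.69 in naive and -0.25 and -0.37 in resistant flasks and fell by 2.04 on the log2 scale (SE 0.22, limma adjusted p = 0.008), with 2 of its 3 probes called. GNA13, its relative, had levels of 0.42 and 0.41 in naive and 1.13 and 1.14 in resistant flasks at its brightest probe. The difference there was 0.72 (SE 0.21, limma adjusted p = 0.161), and it ran from 0.06 to 0.72 over the 3 probes of GNA13. GNAQ, the alpha subunit of Gq, differed by 0.20 (SE 0.24) at its brightest probe and by -0.89 to 0.20 over its 4 probes. RHOA, the small GTPase that G12/13 activates, differed by -0.09 (SE 0.23). GNA14 had the highest difference of this arm, 2.13 (SE 0.42, limma adjusted p = 0.056), and was not called. It was well above background in neither naive flask, so GNA14 was tested through the resistant line alone.

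In the Gs and cyclic AMP arm 2 of 10 tested genes were called. ADCY3, an adenylyl cyclase, had levels of -0.03 and 0.44 in naive and -1.53 and -1.65 in resistant flasks and fell by 1.80 on the log2 scale (SE 0.26, limma adjusted p = 0.023). PRKAR2B, a regulatory subunit of protein kinase A, had levels of -3.88 and -5.07 in naive and -2.19 and -2.07 in resistant flasks, a rise of 2.34 (SE 0.42, limma adjusted p = 0.045) that was kept in 7 of 15 alternatives. GNAS, the alpha subunit of Gs, differed by -0.04 (SE 0.22) at its brightest probe, which was saturated on 1 array. Its other tested probe differed by -0.40. ADCY6 had the lowest difference of this arm, -2.39 (SE 0.98, limma adjusted p = 0.277), and was not called. It was well above background in both naive flasks but in only 1 resistant flask. The lines did not overlap for GNA12, ADCY3 or PRKAR2B, nor in all for 14 of the 24 tested signal transducers.

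**Figure D4:**
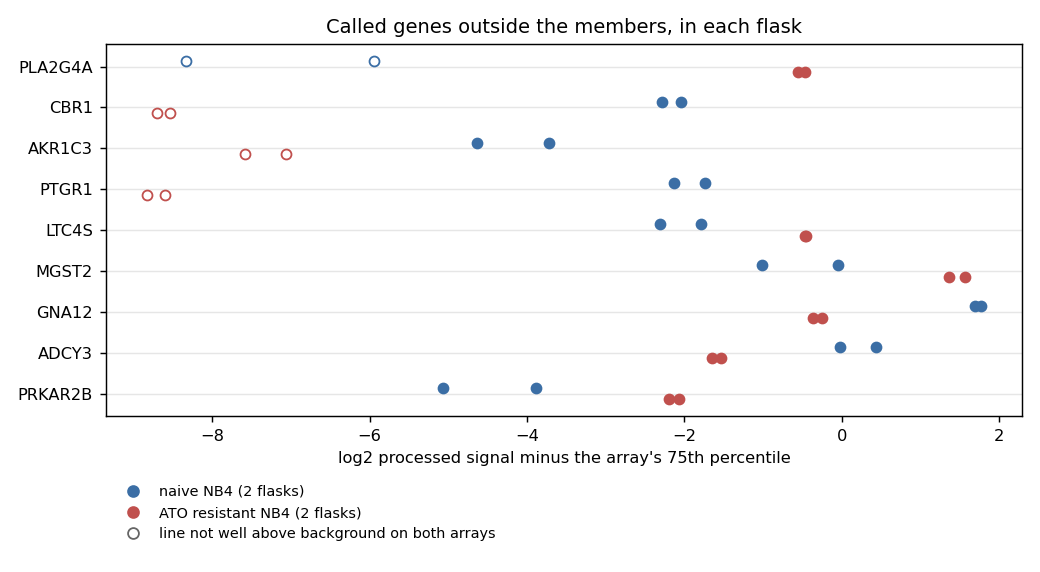
Level in each flask (x axis, log2 processed signal minus the 75th percentile of the array, 1 point per flask, no error bars) of the 9 called genes, 6 from the eicosanoid list and 3 signal transducers. Open points mark a line in which the probe was not well above background on both arrays. The flasks of the lines do not overlap for any of the 9 genes, which were picked as called on these same flasks. In all they do not overlap for 18 of the 34 eicosanoid genes and 14 of the 24 signal transducers tested.

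Markers of cells that use these signals were read beside these values. Of 8 megakaryocyte and platelet genes 6 passed the background call in every flask. The summed linear level of the list was 1.43 and 2.13 in naive and 1.83 and 1.87 in resistant flasks, with the platelet genes PPBP and ITGB3 above background on none. ITGA2B of that list fell by 2.40 on the log2 scale (limma adjusted p = 0.032). The summed level of 5 monocyte and macrophage genes was 3.92 and 3.82 in naive and 7.29 and 8.07 in resistant flasks, with no gene called, 4 above background on all 4 arrays and CD163 on none. That of 4 mast cell and basophil genes was 14.8 and 19.2 in naive and 1.58 and 1.87 in resistant flasks. HDC, the enzyme that makes histamine, was the 1 gene of these called, and it fell by 3.37 on the log2 scale (limma adjusted p = 0.003). For 5 lymphocyte genes the sum was 3.04 and 3.39 in naive and 1.55 and 1.66 in resistant flasks, and for 5 stromal and endothelial genes it lay between 0.88 and 1.32. The part of these changes in the eicosanoid values was not tested.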

How the data were processed

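Labelled RNA of 2 flasks of naive and 2 of ATO resistant NB4 cells was hybridised to one-colour Agilent whole genome arrays. The authors deposited scanner files of Agilent Feature Extraction, whose processed signal is a background-subtracted intensity, and a table of log2 values normalised to the 75th percentile, per the labels and methods with GeneSpring GX 11. That table correlated with the scanner values at r of at least 0.9998 on every array and was an alternative only. Control spots were left out, spots of a probe were averaged, and log2 intensity minus the 75th percentile of the array was tested with limma 3.58.1 in R 4.3.3 (lmFit, eBayes, Benjamini-Hochberg over 28221 probes). With 2 flasks per line an exact permutation test cannot go below p = 0.333. The p-values rest on the spread between these flasks. Of the 41000 probes, 26222 matched a RefSeq gene by accession, and other names are those of the array. Coordinates are those of the files (hg19), and no gene model of that build was used here, so exon and UTR are not given.

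All probes of the 10 genes are described. Other genes named are the called ones of 2 lists, some of their highest and lowest members by role, the nearest neighbours of TBXA2R and the 3 probes most like it. Genes such as GNAQ, HMG20B or LTB4R were added for their role after their values were seen. The members and lists were chosen with earlier results of these data known. Alternatives were normexp (offset 50), quantile and scale normalisation, centring on the median, no filter or a stricter one on dim probes, the deposited table, an intensity trend, the t-test of the methods, the mean over probes, a replicate block and leaving out each flask. A normexp correction with local backgrounds over 100 set to the median of the array was added after seeing the data.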

Additional observations from a re-analysis of the deposited data

How the results depend on the processing

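After normexp background correction 0 member probes, 0 other eicosanoid genes and 0 signal transducers were called in limma (4, 3 and 2 with an unadjusted p below 0.05), as were 0 of all probes, and the gap between the TBXA2R probes was 5.46. With bright local backgrounds reset that gap was 5.85, and 5, 5 and 3 were called. The methods' t-test called 0, 0 and 0 after Benjamini-Hochberg adjustment (7, 9 and 4 before). With no filter on dim probes 1 signal transducer was called, and with probes above background on all 4 arrays 1 other eicosanoid gene, as that filter removes 4 of the 6 and MGST2 loses its call (limma adjusted p = 0.055). Leaving out 1 flask gave 4 to 7 member probes, 4 to 10 other eicosanoid genes, 0 to 5 signal transducers, 0 to 1 neighbours and a gap of 5.90 to 7.10 between the TBXA2R probes, and the calls over all probes ran from 728 to 4538. A lone flask was taken to vary like the other line. With the replicate number as a block 6, 5, 4 and 0 were called, and the block took away the call of MGST2 (limma adjusted p = 0.056). The numbers are not known to pair the flasks, whose deviations correlated at 0.12 over 2 pairs. No called value changed direction under any of these. For single genes, 89 of the tested values kept their call and 42 lost it, and 145 of the untested values moved by less than 1 SD and 25 by more, among them PTGS2, at 1.65 in the deposited table against -0.05. The cause was not tested. Leaving out 1 of 2 flasks can never move a value by more than this SD, so such values were bound to be among the 145. All arrays lay on 1 slide, so no slide block was run. Signal over background limits PTGER2, ALOX5AP at base 471, PLA2G4A, CBR1, AKR1C3 and PTGR1, whose differences move with the correction.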
